A study of Homo sapiens with 9 samples.

Results

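Expression of 10 genes for tumor ligands that immune cells read was assessed in PC3 xenografts: CD274 (encoding PD-L1), PDCD1LG2 (PD-L2), PVR (CD155), CD47, NT5E (CD73) and the NKG2D ligands MICA, MICB, ULBP1, ULBP2 and ULBP3. They were chosen by symbol, with earlier results of these data known. All 10 were listed in both deposited count tables, and they are 10 of 16204 genes listed in either table. PC3 is a human prostate cancer cell line. Cells were grown under the skin of male NSG mice, which lack T, B and NK cells, so the lymphocytes that carry most receptors for these ligands are missing from the host, while its macrophages remain. Mice were 11 weeks old and, per the series record, received 5 mg/kg of an antibody-drug conjugate or PBS as vehicle in 5 weekly cycles once tumors had reached 90 mm3. In the study's methods this age, starting volume and number of cycles belong to an experiment at another dose of T-DXd, and the experiment at 5 mg/kg has other values for each. P-DXd (patritumab deruxtecan) binds HER3 and T-DXd (trastuzumab deruxtecan) binds HER2, and both deliver the same topoisomerase I inhibitor. There were 3 libraries per group. For each treated library the title and the treatment field name opposite conjugates, so groups carry the name in the title (P-DXd-titled, T-DXd-titled), and which conjugate each group received is unresolved. The comparison of all 6 treated libraries with the 3 PBS libraries does not depend on this.

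PD-L1 and PD-L2 bind PD-1 on T cells and restrain them. PVR is a ligand of TIGIT and CD96, which inhibit T and NK cells, and of CD226, which activates them. CD47 engages SIRPA on macrophages and holds back phagocytosis, and CD73 converts AMP into adenosine, which dampens immune cells. The MICA, MICB and ULBP proteins act in the opposite direction: they engage NKG2D, an activating receptor of NK cells and CD8 T cells, and are known to be raised by cell stress, including DNA damage.

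Depth was 90761763 to 125538606 counts in PBS libraries and 54481702 to 83721486 in treated libraries, and levels are given as CPM, the counts relative to the effective total of their library. PBS replicate 1 was the library least like the rest of its group (r = 0.974 with the mean of the others across genes, against 0.985 to 0.993 for the remaining 8 libraries), and results that rest on it are also given without it. Epithelial keratins were high in each library, with KRT7, the highest member of the epithelial list, at 1112 ± 43.8 CPM (SD, n = 3) in PBS. Reads of mouse cells that align to human genes were not separated in the tables. Lower expression per cell and fewer cells of a type cannot be told apart in bulk tumors. The p-values set group differences against the spread between these libraries.

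Most of the genes lie in clusters (positions as in the count tables). The tables do not name their build, and most of their gene positions differ from GRCh38, the build of the promoter positions below. PDCD1LG2 (chr9:5510545-5571282) lies 39979 bp from CD274 (chr9:5450503-5470566). MICA (chr6:31371356-31383092) and MICB (chr6:31462658-31478901) are 79566 bp apart, near HLA-B. ULBP2 (chr6:150263136-150270371), ULBP1 (chr6:150285143-150294846) and ULBP3 (chr6:150384286-150390231) form the third cluster, with ULBP1 14772 bp from ULBP2 and 89440 bp from ULBP3. NT5E (chr6:86159809-86205500), CD47 (chr3:107762145-107809872) and PVR (chr19:45147098-45166850) stand alone. PVR overlaps CEACAM19, and MICA with MICB and the ULBP genes among themselves are close relatives, so reads shared within these pairs may have been assigned to either gene.

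Promoters of 9 of the 10 genes were found in RefSeq (GRCh38.p14), all but that of PDCD1LG2, and the 250 bases before each start were searched on both strands for motifs of stress and interferon signaling. The interferon regulatory factor motif, GAAA and again GAAA with any 2 bases between them, occurred only in CD274 among the 9, as 2 overlapping matches on the minus strand 208 to 193 bases upstream; it is present in 3.07% of 27305 promoters of this length. The heat shock element GAANNTTC occurred in MICA and MICB, 135 to 128 and 139 to 132 bases upstream, with the same 8 letters, and is present in 5.85% of promoters. The E2F motif TTTCCCGC occurred in ULBP2 on the minus strand, 53 to 46 bases upstream, and is present in 1.42% of promoters. The second E2F motif, TTTGGCGC (0.553% of promoters), and the NF-kappa B motif (GGG, any 2 bases and TTTCC; 1.73%) had no match in these windows. The 4 promoters with a match are shown 5′ to 3′ on the strand of the gene with the matched letters in capitals. A match is a description of letters and not a site of binding.
CD274 (chr9:5450292-5450541, plus strand): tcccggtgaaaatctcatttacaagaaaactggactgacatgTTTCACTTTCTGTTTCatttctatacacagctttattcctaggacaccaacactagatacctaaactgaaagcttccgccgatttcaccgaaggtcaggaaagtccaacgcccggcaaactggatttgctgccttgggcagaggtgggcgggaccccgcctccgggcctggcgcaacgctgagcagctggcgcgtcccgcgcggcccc
MICA (chr6:31403345-31403594, plus strand): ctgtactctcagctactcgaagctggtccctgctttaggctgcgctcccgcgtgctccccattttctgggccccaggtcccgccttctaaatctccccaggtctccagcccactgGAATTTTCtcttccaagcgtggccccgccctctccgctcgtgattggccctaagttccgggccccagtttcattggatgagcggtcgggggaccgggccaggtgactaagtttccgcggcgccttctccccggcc
MICB (chr6:31497895-31498144, plus strand): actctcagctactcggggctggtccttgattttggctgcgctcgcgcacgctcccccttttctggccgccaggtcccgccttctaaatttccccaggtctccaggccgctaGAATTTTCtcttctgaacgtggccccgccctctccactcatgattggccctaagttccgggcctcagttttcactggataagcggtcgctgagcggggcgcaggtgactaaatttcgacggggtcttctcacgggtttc
ULBP2 (chr6:149941764-149942013, plus strand): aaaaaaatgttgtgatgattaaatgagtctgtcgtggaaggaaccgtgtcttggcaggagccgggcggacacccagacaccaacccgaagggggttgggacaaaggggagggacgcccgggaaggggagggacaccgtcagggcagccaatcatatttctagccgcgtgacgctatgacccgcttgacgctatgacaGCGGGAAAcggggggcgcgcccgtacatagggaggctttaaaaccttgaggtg

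To compare residual tumors with vehicle, all 6 treated libraries were tested against the 3 PBS libraries with edgeR's quasi-likelihood test, adjusted over 15070 genes and called at an adjusted p of 0.05 or lower and a fold change of at least 1.5. PDCD1LG2 and ULBP1 were called higher and NT5E was called lower. The 3 calls among 10 members are close to the background, since 32.2% of all genes tested were called (15.2% higher and 17.1% lower). CD274, CD47, MICB and ULBP3 had adjusted p-values below 0.05 with smaller fold changes, and PVR, MICA and ULBP2 did not pass the test. For 6 members the treated range lay apart from the PBS range, 4 higher and 2 lower, where 50.5% of all genes did not overlap (25.0% higher and 25.5% lower). In P-DXd-titled libraries 2 members were called against PBS (1 higher, background 11.2%, and 1 lower, background 13.8%; 25.0% in all). Of the members 6 did not overlap with PBS there (4 higher, background 27.8%, and 2 lower, background 27.4%; 55.2% in all). In T-DXd-titled libraries 3 were called (1 higher, background 13.1%, and 2 lower, background 15.5%; 28.6% in all). Here 7 did not overlap with PBS (4 higher, background 30.8%, and 3 lower, background 30.5%; 61.3% in all). These 2 comparisons share the PBS libraries. The median log2 fold change of the members in all treated libraries was -0.14, beside -0.014 for all genes.

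**Figure D1:**
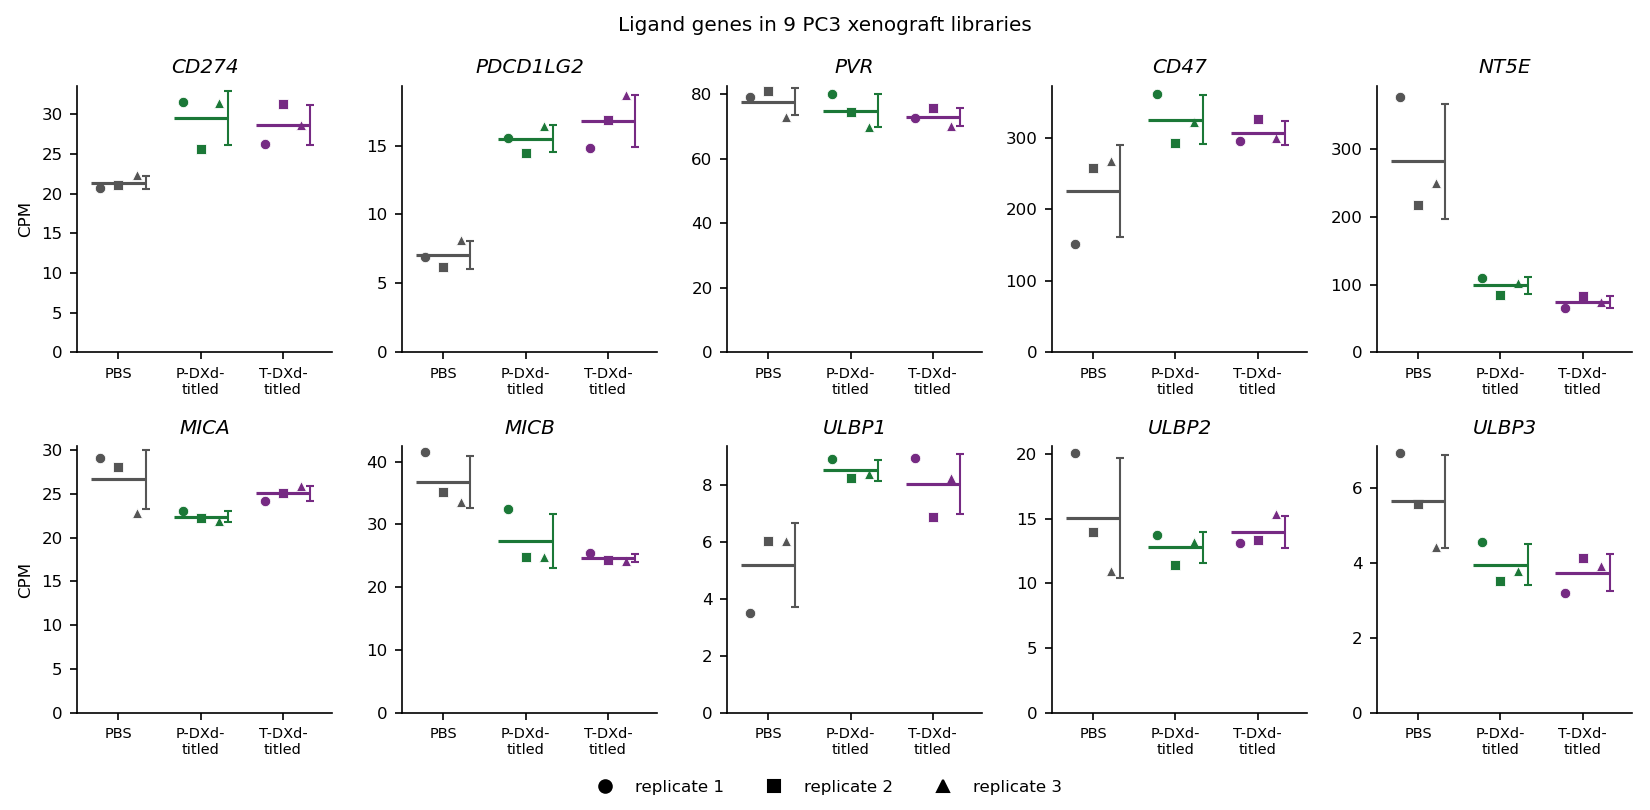
CPM (linear axis from 0, a separate scale for each gene) of the 10 ligand genes in each library; lines are group means and error bars SD (n = 3), and symbols mark replicate numbers. PDCD1LG2 was at least 14.5 CPM in each treated library and at most 8.14 CPM in PBS, and NT5E was at most 109.8 CPM in treated libraries and at least 218 CPM in PBS.

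Of the PD-1 ligands, PDCD1LG2 was called higher and CD274 was higher by less than the fold minimum. PDCD1LG2 was 6.89, 6.18 and 8.14 CPM in PBS replicates 1 to 3, 15.5, 14.5 and 16.4 CPM in the P-DXd-titled replicates and 14.8, 16.9 and 18.6 CPM in the T-DXd-titled replicates. Each treated library was above each PBS library, and the treated groups overlapped each other. PDCD1LG2 was 2.25-fold higher in all treated libraries (95% interval 1.86 to 2.72; log2 fold change 1.17, SE 0.12, adjusted p = 3.29e-05). The fold was 2.18 in P-DXd-titled libraries (adjusted p = 0.00368) and 2.34 in T-DXd-titled libraries (adjusted p = 0.00189).

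CD274 was 20.8, 21.1 and 22.3 CPM in PBS, 31.5, 25.6 and 31.5 CPM in the P-DXd-titled and 26.2, 31.3 and 28.6 CPM in the T-DXd-titled replicates. The PBS libraries lay close together and all 6 treated libraries were above them. CD274 was 1.34-fold higher in all treated libraries (95% interval 1.17 to 1.55; log2 fold change 0.43, SE 0.093, adjusted p = 0.00290), below the 1.5-fold minimum, and 1.38-fold and 1.33-fold higher in the P-DXd-titled and the T-DXd-titled libraries (adjusted p = 0.0269 and 0.0178). The ratio of CD274 to PDCD1LG2 counts within a library was 3.06 ± 0.337 in PBS, 1.91 ± 0.131 in the P-DXd-titled and 1.72 ± 0.163 in the T-DXd-titled libraries (SD, n = 3). The lowest ratio in PBS was 2.74 and the highest in a treated library was 2.03, so the groups did not overlap. These ratios are given without a test.

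Of 21 genes that regulate PD-L1, 3 were higher and 2 lower in all treated libraries and 16 were not called. Their median log2 fold change was 0.21, beside -0.014 for all genes. As the background for this list and the later ones, 32.2% of all genes tested were called (15.2% higher and 17.1% lower). IRF1, the interferon-induced factor that drives PD-L1 transcription, rose from 42.8 ± 8.87 CPM in PBS (n = 3) to 121 ± 13.2 CPM in treated libraries (n = 6; log2 fold change 1.48, SE 0.14, adjusted p = 1.77e-05). STAT3 rose from 7.25 ± 3.02 to 15.8 ± 2.84 CPM (adjusted p = 0.00306), and the interferon gamma receptor chain IFNGR1 was also higher (log2 fold change 0.59, adjusted p = 3.45e-05). MYC was lower (log2 fold change -1.06, adjusted p = 0.00101), as was PTPN2, a phosphatase that limits JAK-STAT signaling (-0.62, adjusted p = 0.000846). Both IFNGR1 and PTPN2 were near the fold minimum: IFNGR1 fell below it without PBS replicate 2 (0.56) or 3 (0.57), and PTPN2 did without PBS replicate 1 (-0.41) or P-DXd-titled replicate 3 (-0.58). Macrophages and fibroblasts can also express PD-1 ligands. The summed macrophage markers were 8.41 to 10.3 CPM in PBS and 20.1 to 41.3 CPM in treated libraries, with 4 of 7 tested markers called higher (CSF1R the highest by mean over all libraries) and 1 lower. CD68 was 0 to 0.122 CPM in treated libraries, and CD163, MRC1 and TYROBP were not analysed here. The summed fibroblast markers, led by COL1A1, were 1061 to 2032 CPM in PBS and 1265 to 2272 CPM in treated libraries, with 6 of 10 called higher and 4 not called. The part of host cells in the PDCD1LG2 and CD274 results was not tested.

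NT5E showed the largest change of the 10 genes and fell. It was 378, 218 and 249.9 CPM in PBS replicates 1 to 3, 109.8, 85.0 and 102 CPM in the P-DXd-titled replicates and 65.8, 83.3 and 74.5 CPM in the T-DXd-titled replicates. PBS replicate 1 was the highest library, and even the lowest PBS library lay well above the highest treated library. NT5E was 3.31-fold lower in all treated libraries (log2 change -1.72, SE 0.19, adjusted p = 3.88e-05), 2.87-fold lower in P-DXd-titled (adjusted p = 0.00420) and 3.84-fold lower in T-DXd-titled libraries (adjusted p = 0.00131). Without PBS replicate 1 the log2 fold change in all treated libraries was -1.44 and the gene was still called.

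CD73 acts on AMP that ectonucleotidases release from ATP. Of 16 other genes of the adenosine pathway 12 were tested, of which 1 was higher, 4 lower and 7 not called (median log2 fold change -0.21). ENTPD1 (CD39), which yields the AMP that CD73 uses, fell from 11.6 ± 5.10 CPM in PBS to 4.34 ± 0.692 CPM in treated libraries (log2 change -1.44, SE 0.23, adjusted p = 0.000483). The adenosine-clearing enzymes ADA, a deaminase, and ADK, a kinase, were also lower (log2 fold change -0.86 and -0.71, adjusted p = 0.000227 and 0.000560). Without PBS replicate 1, ADK was -0.47 and lost its call. ENTPD3, another ectonucleotidase, was higher (0.97, adjusted p = 0.00449) at a low level of 1.34 ± 0.195 CPM in PBS.

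CD47 was 152, 258 and 268 CPM in PBS replicates 1 to 3, 362, 293 and 322 CPM in the P-DXd-titled and 295, 326 and 299.7 CPM in the T-DXd-titled replicates. PBS replicate 1 stood well below the other PBS libraries, and the gap between the highest PBS and the lowest treated library was small. CD47 was 1.38-fold higher in all treated libraries (95% interval 1.09 to 1.75; log2 fold change 0.47, SE 0.16, adjusted p = 0.0250), which is below the fold minimum, and adjusted p-values were 0.0965 in the P-DXd-titled and 0.131 in the T-DXd-titled libraries. With PBS replicate 1 omitted it was 0.26, while omitting PBS replicate 3 gave 0.60 and a call. Of 9 genes of the CD47 axis, 3 were higher and 6 not called (median log2 fold change 0.18). SLAMF7, a partner in phagocytosis, was 0.197 ± 0.170 CPM in PBS and 0.958 ± 0.134 CPM in treated libraries (log2 change 2.22, adjusted p = 0.00429). B2M, the light chain of MHC class I that engages LILRB1 on macrophages, rose from 1671 ± 485 to 4844 ± 673 CPM (1.52, adjusted p = 8.55e-05), and THBS2, a matrix thrombospondin, was higher (0.74, adjusted p = 0.00460; 0.55 and not called without PBS replicate 3). SIRPA itself was not called (0.35, adjusted p = 0.102).

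PVR did not pass the test. It was 79.1, 81.0 and 72.9 CPM in PBS, 80.1, 74.3 and 69.9 CPM in the P-DXd-titled and 72.7, 75.7 and 70.3 CPM in the T-DXd-titled replicates, with all groups overlapping. The log2 fold change in all treated libraries was -0.094 (95% interval -0.24 to 0.054; adjusted p = 0.253), an interval that lies within the 1.5-fold minimum on both sides. Its relatives among the nectins did change in opposite directions. PVRL1 (NECTIN1) fell from 226 ± 84.8 CPM in PBS to 97.5 ± 13.7 CPM in treated libraries (log2 change -1.24, adjusted p = 0.000353) and PVRL3 (NECTIN3) from 28.4 ± 0.836 to 18.8 ± 1.59 CPM (-0.62, adjusted p = 0.000179). PVRL2 (NECTIN2), which shares TIGIT and CD226 with PVR, was 36.3 to 60.4 CPM in PBS and 87.8 to 108 CPM in treated libraries (higher, 0.89, adjusted p = 0.000452) and was chosen for naming after its value was seen.

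In the list of other checkpoint ligands, 7 of 15 tested genes were higher, 3 lower and 5 not called, with a median log2 fold change of 0.76 beside -0.014 for all genes. LGALS9 (galectin-9), a TIM-3 ligand, rose from 3.32 ± 0.202 to 16.8 ± 3.70 CPM (log2 fold change 2.32, SE 0.19, adjusted p = 8.10e-06). BTN3A1, a butyrophilin sensed by gamma delta T cells, and LGALS3 (galectin-3), a LAG-3 ligand, were also higher, at 32.9 ± 6.69 and 128 ± 27.1 CPM in PBS against 76.6 ± 13.7 and 287 ± 18.2 CPM in treated libraries (adjusted p = 0.000201 and 3.07e-05). HHLA2, a member of the B7 family, was barely detected, at 0.171 to 0.200 CPM in PBS and 0 to 0.0458 CPM in treated libraries (called lower, adjusted p = 0.00330).

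**Figure D2:**
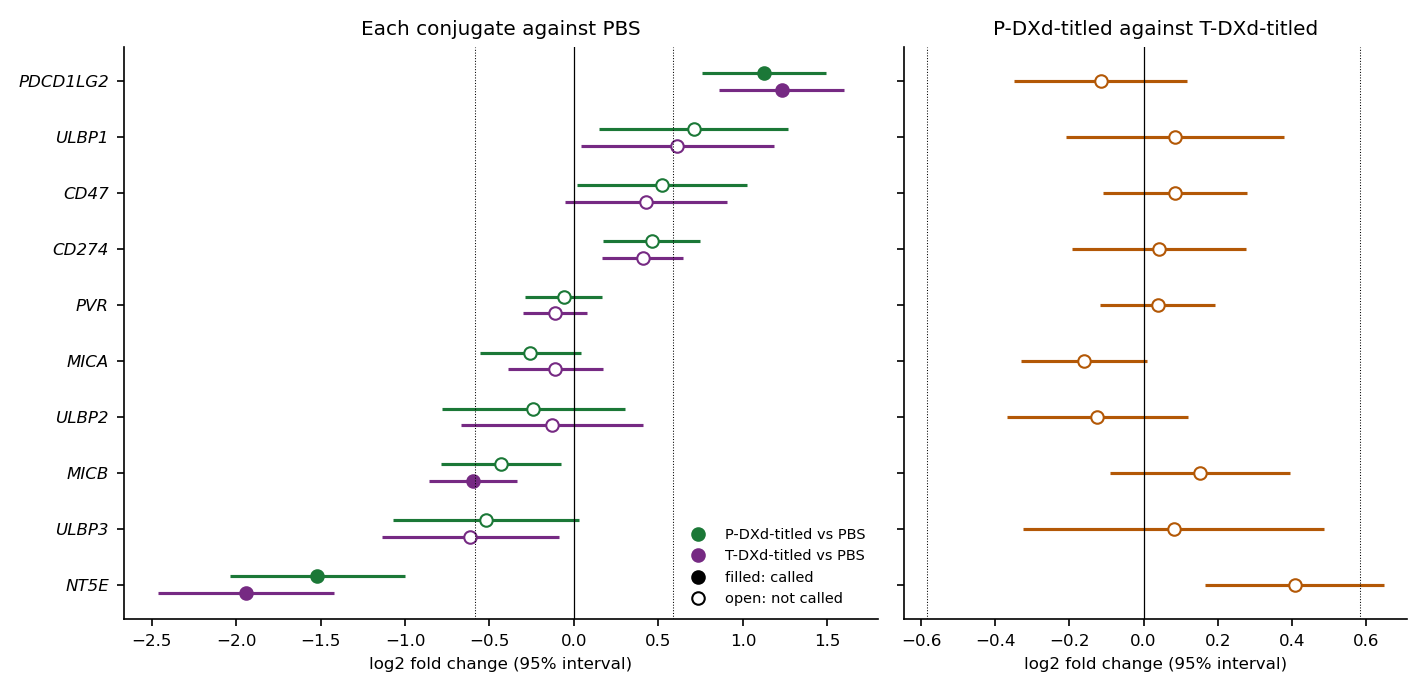
Log2 fold changes (x axis) with 95% intervals for each ligand gene, P-DXd-titled or T-DXd-titled against PBS on the left and the difference between the conjugate groups (P-DXd-titled minus T-DXd-titled) on the right, where the x scale differs. Filled circles were called and dotted lines mark the 1.5-fold minimum; PDCD1LG2 and NT5E are filled in both conjugate groups, MICB in T-DXd-titled libraries alone, and none on the right.

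The NKG2D ligands did not move as 1 group: ULBP1 was called higher, MICB and ULBP3 were lower with folds under the minimum, and MICA and ULBP2 did not pass the test. Their summed level was 89.3 ± 11.6 CPM in PBS, 75.0 ± 6.71 CPM in the P-DXd-titled and 75.4 ± 2.02 CPM in the T-DXd-titled libraries (SD, n = 3), and the lowest PBS sum, 78.0 CPM, lay within the range of the treated libraries. ULBP1 was 3.49, 6.01 and 6.03 CPM in PBS replicates 1 to 3, 8.91, 8.22 and 8.36 CPM in the P-DXd-titled and 8.95, 6.87 and 8.22 CPM in the T-DXd-titled replicates. Each treated library was above each PBS library, with PBS replicate 1 the lowest of all. ULBP1 was 1.57-fold higher in all treated libraries (log2 fold change 0.65, 95% interval 0.26 to 1.04, SE 0.18, adjusted p = 0.00962). When PBS replicate 1 was omitted the value was 0.45 and no longer met the fold minimum. In the separate comparisons the log2 fold change was 0.71 in the P-DXd-titled and 0.61 in the T-DXd-titled libraries (adjusted p = 0.0557 and 0.0798), neither of which was called.

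ULBP3 was 6.92, 5.55 and 4.43 CPM in PBS, 4.56, 3.51 and 3.77 CPM in the P-DXd-titled and 3.18, 4.12 and 3.90 CPM in the T-DXd-titled replicates. PBS replicate 3 was below P-DXd-titled replicate 1, so treated and PBS libraries overlapped. The log2 fold change in all treated libraries was -0.57 (SE 0.17, adjusted p = 0.0150), a 1.49-fold difference that was just under the minimum. It was -0.52 in the P-DXd-titled and -0.61 in the T-DXd-titled libraries (adjusted p = 0.124 and 0.0620). In all treated libraries it was called without PBS replicate 2 (-0.59), PBS replicate 3 (-0.72), T-DXd-titled replicate 2 (-0.59) or P-DXd-titled replicate 1 (-0.63).
ULBP2 was 20.1, 14.0 and 11.0 CPM in PBS, 13.7, 11.4 and 13.2 CPM in the P-DXd-titled and 13.1, 13.3 and 15.4 CPM in the T-DXd-titled replicates. PBS libraries spanned the range of all treated libraries. The log2 fold change was -0.19 (95% interval -0.57 to 0.18; adjusted p = 0.357), and omitting PBS replicate 1 turned it to 0.093. Within a library, ULBP1 counts relative to ULBP3 were 0.505, 1.08 and 1.36 in PBS and 1.67 to 2.81 in treated libraries, so the ratio did not overlap between the groups, and ULBP1 had fewer counts than ULBP3 in PBS replicate 1 alone.

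MICB was 41.5, 35.1 and 33.6 CPM in PBS replicates 1 to 3, 32.4, 24.8 and 24.9 CPM in the P-DXd-titled and 25.4, 24.3 and 24.2 CPM in the T-DXd-titled replicates. All treated libraries were below PBS, with P-DXd-titled replicate 1 next to the lowest PBS library and apart from the other 5. MICB was 1.44-fold lower in all treated libraries (log2 change -0.52, SE 0.11, adjusted p = 0.00248) and was not called. In T-DXd-titled libraries it was 1.51-fold lower and called (log2 fold change -0.60, SE 0.11, adjusted p = 0.00651), and in P-DXd-titled libraries 1.35-fold lower (-0.43, SE 0.15, adjusted p = 0.0617). The T-DXd-titled call was lost without PBS replicate 1 (-0.49) or T-DXd-titled replicates 2 or 3 (both -0.58), and without P-DXd-titled replicate 1 the gene was called in all treated libraries (-0.59).
MICA was 29.1, 28.1 and 22.9 CPM in PBS, 23.1, 22.2 and 21.9 CPM in the P-DXd-titled and 24.2, 25.1 and 25.9 CPM in the T-DXd-titled replicates. PBS replicate 3 lay within the range of the treated libraries. MICA had a log2 fold change of -0.19 in all treated libraries (95% interval -0.41 to 0.025; adjusted p = 0.118), with -0.26 in the P-DXd-titled and -0.11 in the T-DXd-titled libraries (adjusted p = 0.151 and 0.479). The ratio of MICA to MICB counts was 0.727 ± 0.0646 in PBS, 0.830 ± 0.102 in the P-DXd-titled and 1.02 ± 0.0616 in the T-DXd-titled libraries. Each T-DXd-titled ratio was above each PBS ratio, while the P-DXd-titled ratios overlapped PBS.

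**Figure D3:**
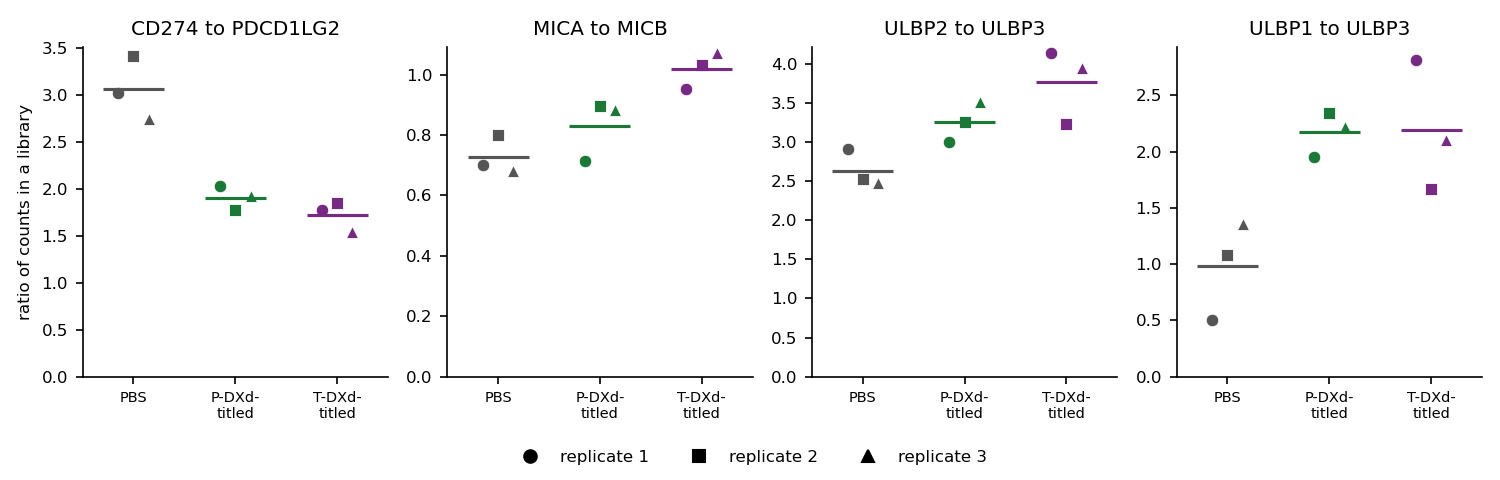
Ratios of raw counts between 2 genes within a library (linear axes from 0, a separate scale for each pair); lines are group means (n = 3) and symbols mark replicate numbers. The CD274 to PDCD1LG2 ratio is lower and the ULBP1 to ULBP3 ratio higher in each treated library than in PBS, and the MICA to MICB ratio reaches 1.07 in T-DXd-titled libraries.

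Mice have no MICA or MICB gene. Of 13 genes that shed or induce NKG2D ligands, 2 were higher, 5 lower and 6 not called (median log2 fold change -0.038). Lower were the damage checkpoint kinase CHEK1, at 75.1 ± 28.7 CPM in PBS and 17.1 ± 2.97 CPM in treated libraries (log2 change -2.16, SE 0.20, adjusted p = 1.65e-05), the ligand-shedding protease MMP9 (-1.96, adjusted p = 0.00446) and the cell cycle transcription factor E2F1 (-1.21, adjusted p = 3.35e-05). MMP9 varied widely, at 35.9 to 235 CPM in PBS and 22.3 to 64.4 CPM in treated libraries, so the groups overlapped. The heat shock genes HSPA1A and HSPA1B were higher (1.04 and 0.72, adjusted p = 0.000250 and 0.00168), and since they are near-identical, their counts cannot be fully separated. The remaining genes for NK cell ligands gave 3 higher, 1 lower and 6 not called of 10 tested (median log2 fold change 0.22). HLA-E, an inhibitory ligand of NKG2A, rose from 458 ± 22.9 to 1095 ± 160 CPM (log2 fold change 1.24, SE 0.13, adjusted p = 2.88e-05). RAET1L, a relative of the ULBP genes, was higher (0.73, adjusted p = 0.00148). The adhesion ligand ICAM1 was 25.0 to 119 CPM in PBS and 151 to 201 CPM in treated libraries and was called higher (0.95, adjusted p = 0.0482), but the call was lost without PBS replicate 1 (0.53, below the fold minimum) and without any 1 treated library (adjusted p = 0.0609 to 0.0830), and ICAM1 was not called in either conjugate group alone (adjusted p = 0.165 and 0.169). NCR3LG1, which encodes the NKp30 ligand B7-H6, fell from 6.98 ± 3.47 to 1.87 ± 0.278 CPM (-1.92, adjusted p = 0.000152).

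The lymphocyte receptors tested were at low levels. SIRPA, the receptor that CD47 engages on macrophages, was 71.7 ± 22.2 CPM in PBS and 92.7 ± 9.01 CPM in treated libraries. The summed macrophage markers were 9.56 ± 1.01 CPM in PBS and 30.7 ± 6.92 CPM in treated libraries. Which cells express SIRPA was not tested. Of 10 receptor genes 4 were tested, with CD96 lower (log2 fold change -1.99, adjusted p = 0.00937) from 0.395 ± 0.166 CPM in PBS. KLRK1, which encodes NKG2D, was not called (-1.66, adjusted p = 0.124), and PDCD1, TIGIT, CTLA4, CD28 and KLRC1 were not analysed here. The summed T and NK cell markers were 3.66 to 4.48 CPM in PBS and 2.85 to 3.92 CPM in treated libraries, with CD8A the highest (2.73 ± 0.281 CPM in PBS), 1 of 4 tested markers higher and 1 lower. CD3E, CD3G, CD8B, GNLY, PRF1, GZMB and NCR1 were not analysed here. Endothelial markers summed to 5.08 to 9.56 CPM in PBS and 5.89 to 10.7 CPM in treated libraries (1 of 6 higher, TEK the highest; PECAM1 and EMCN not analysed here). Skeletal muscle markers, led by ACTA1, were higher for 7 of 7 genes and summed to 1.93 to 36.5 CPM in PBS and 57.1 to 3166 CPM in treated libraries. In each conjugate group alone 6 of 7 were called higher. Calls of some of these genes in all treated libraries were lost without PBS replicate 1, 2 or 3. ACTA1 had a log2 fold change of 3.46 without P-DXd-titled replicate 2, and 4.80 to 7.24 when any other library was omitted. The epithelial list had 2 of 6 genes higher, with sums of 2697 to 3485 CPM in PBS and 4324 to 4853 CPM in treated libraries. The part of these changes in the ligand results was not tested.

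P-DXd-titled and T-DXd-titled libraries were then compared directly, where edgeR called 0 of the 10 genes (background 0.0273%, adjusted over 14653 genes). DESeq2 also called 0 (background 0.150%), and 1 gene had an unadjusted p under 0.05 in edgeR. That gene was NT5E, 98.9 ± 12.6 CPM in the P-DXd-titled and 74.6 ± 8.73 CPM in the T-DXd-titled libraries (SD, n = 3). NT5E was 1.33-fold higher in P-DXd-titled libraries (95% interval 1.12 to 1.57; edgeR adjusted p = 1.00) and did not pass the test. NT5E and MICA did not overlap between the groups, where 8.09% of all genes did not, with NT5E higher (background 4.13%) and MICA lower (background 3.96%) in P-DXd-titled libraries. The log2 difference for MICA was -0.16 (95% interval -0.33 to 0.010).
For the other members the 95% intervals of the log2 difference were -0.35 to 0.12 for PDCD1LG2, -0.19 to 0.28 for CD274, -0.11 to 0.28 for CD47, -0.12 to 0.19 for PVR and -0.090 to 0.39 for MICB. The intervals were -0.21 to 0.38 for ULBP1, -0.37 to 0.12 for ULBP2 and -0.32 to 0.49 for ULBP3. All of these lie within the 1.5-fold minimum, while the interval for NT5E crosses it.

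Levels were compared between genes per kilobase of transcript. In PBS, NT5E was the highest at 79.2 ± 23.7 CPM per kb, followed by CD47 at 42.7 ± 12.2, MICA at 19.5 ± 2.45, MICB at 15.2 ± 1.74, PVR at 13.4 ± 0.735 and ULBP2 at 11.3 ± 3.49 CPM per kb (SD, n = 3). CD274 at 5.88 ± 0.225, PDCD1LG2 at 2.91 ± 0.408, ULBP3 at 1.81 ± 0.401 and ULBP1 at 1.61 ± 0.454 CPM per kb were the lowest. The ranges of MICA and MICB, MICB and PVR, PVR and ULBP2, and ULBP3 and ULBP1 overlapped. Both genes of a pair were measured in the same libraries, so overlapping ranges do not show whether their order held within each library. Among the P-DXd-titled libraries PVR and MICB, MICB and ULBP2, and ULBP2 and CD274 overlapped, and among the T-DXd-titled libraries NT5E and MICA, ULBP2 and MICB, and CD274 and PDCD1LG2. In treated tumors CD47 came before NT5E, with 61.5 ± 6.57 and 27.8 ± 3.55 CPM per kb in the P-DXd-titled and 58.0 ± 3.21 and 20.9 ± 2.45 CPM per kb in T-DXd-titled libraries. In both conjugate groups ULBP1 (2.65 ± 0.115 and 2.49 ± 0.328 CPM per kb) was above ULBP3 (1.13 to 1.47 and 1.02 to 1.33 CPM per kb) without overlap. PDCD1LG2, at 6.37 ± 0.403 and 6.90 ± 0.785 CPM per kb, came near CD274, at 8.13 ± 0.940 and 7.90 ± 0.693 CPM per kb, and overlapped it in T-DXd-titled libraries.

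**Figure D4:**
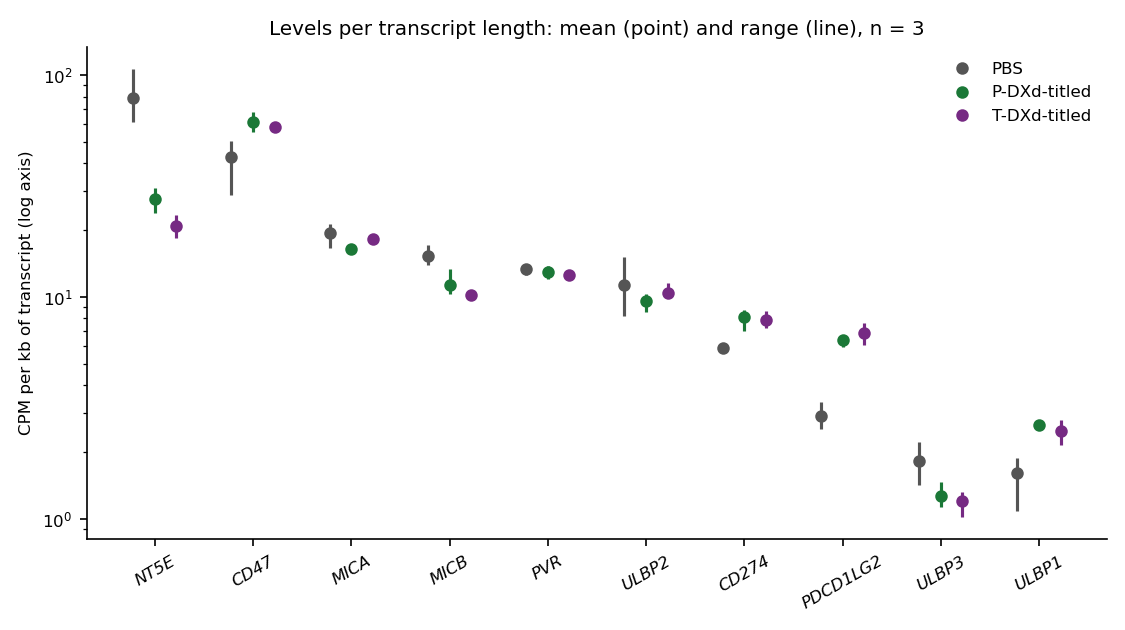
CPM per kb of transcript (log axis) for each ligand gene; points are group means and lines the range over 3 libraries. NT5E leads in PBS at 79.2 CPM per kb and CD47 in both conjugate groups, at 61.5 and 58.0 CPM per kb, and the range of ULBP1 lies above that of ULBP3 in both conjugate groups.

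PDCD1LG2 and NT5E kept their call and direction under all alternatives tried, whereas the calls of ULBP1, MICB, ULBP3 and CD47 turned on single libraries or on the fold minimum. Under those alternatives the log2 fold change in all treated libraries was 1.08 to 1.28 for PDCD1LG2 and -1.88 to -1.44 for NT5E. ULBP1 was 0.45 to 0.77, CD47 0.26 to 0.60, MICB -0.59 to -0.41 and ULBP3 -0.72 to -0.38, each in 1 direction throughout.

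**Figure D5:**
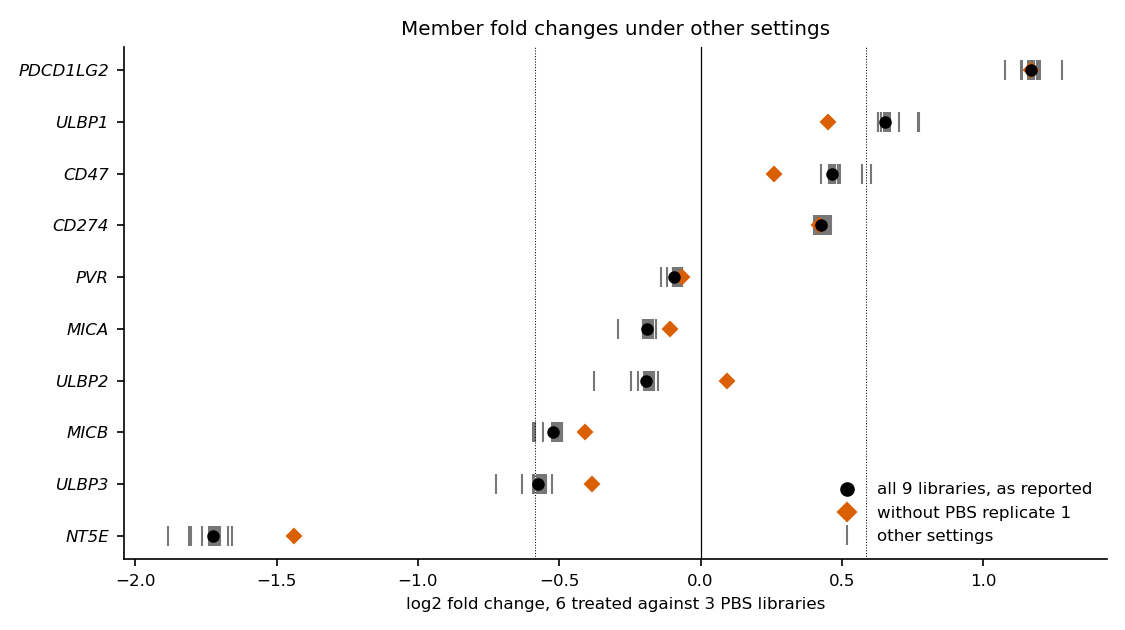
Log2 fold change (x axis) of each ligand gene in 6 treated against 3 PBS libraries as reported (black circle), without PBS replicate 1 (orange diamond) and under the other alternatives (grey ticks); dotted lines mark the 1.5-fold minimum. ULBP2 crosses 0 without PBS replicate 1 (0.093), and PDCD1LG2 and NT5E stay outside the dotted lines.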

How the data were processed

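RNA-Seq was performed by the authors on 9 PC3 xenograft libraries. Adapters were removed with Cutadapt, reads were placed by STAR and featureCounts assigned them to genes, per the study's methods. The deposited tables hold raw counts of protein-coding genes with at least 5 counts in at least 2 libraries. Handling of mouse reads, strand and reads shared between genes is not given in the sources used here. The labels name GRCh38.p13, but of 15869 gene identifiers shared with GENCODE v44 only 44 lie at identical positions.

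Groups were taken from titles. Replicates differed beyond sampling noise (chi-square per gene 17.7 to 395). Counts were tested with edgeR 4.0.16 in R 4.3.3 (TMM, filterByExpr, two-sided quasi-likelihood F test, Benjamini-Hochberg over all genes), each conjugate within its own table. Transcript lengths were those of Ensembl canonical transcripts in GENCODE v44. The method was tested on simulated data. Alternatives were DESeq2 1.42.0, RLE or total-count scaling, other count filters, no fold minimum, glmTreat, all 9 libraries in 1 fit, a block on the code digit in the titles and leaving out each library.

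The members and lists were chosen with earlier results of these data known. Named genes are all members, up to 3 higher and 3 lower called genes of each pathway list with the largest change, and the highest gene of each marker list, apart from a list of genes low in PC3 cells that is not reported here. PVRL2, SIRPA, KLRK1 and CD68 were named after their values were seen, and the effect of leaving out each library on genes of the lists was added after seeing the data. 0 columns were left unused.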

Additional observations from a re-analysis of the deposited data

Results flagged for a closer look

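In the 6 treated libraries, MICB had a sample apart from the rest: P-DXd-titled replicate 1, at 32.4 CPM, where the other 5 were 24.2 to 25.4 CPM, with a gap that was 0.852 of the range. ULBP1 had 1 as well: T-DXd-titled replicate 2, at 6.87 CPM, where the other 5 were 8.22 to 8.95 CPM, with a gap that was 0.648 of the range. The 95% limit for 6 samples is 0.625, and chance passes it in about 1 of 20 groups, where 10 genes were examined.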

How the results depend on the processing

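PDCD1LG2 and NT5E were called in each comparison with PBS under all alternatives run. The number of members called in T-DXd-titled against PBS was 3, and it was 5 with DESeq2 and 5 with all 9 libraries in 1 fit, where ULBP1 and ULBP3 were added (30.0% of all genes in both settings). In all treated against PBS it was 3, and 7 with no fold change minimum (55.7% of all genes). Leaving out 1 library at a time gave 2 members called throughout with the P-DXd title (12.1% to 25.8% of all genes). It gave 2 to 4 with the T-DXd title (18.4% to 30.7%) and 2 to 5 in all treated against PBS (27.6% to 34.3%). The direction of ULBP2 rested on PBS replicate 1: over these omissions its log2 fold change was -0.44 to 0.030 in P-DXd-titled, -0.31 to 0.15 in T-DXd-titled and -0.38 to 0.093 in all treated against PBS. Between the conjugate groups the small differences of CD274 (-0.018 to 0.14), PVR (-0.013 to 0.082), ULBP1 (-0.014 to 0.17) and ULBP3 (-0.035 to 0.16) changed sign without some treated libraries. With the replicate block on the code digit, 2 members passed for each conjugate group against PBS (23.5% of all genes for P-DXd-titled, 22.8% for T-DXd-titled). MICB lost its T-DXd-titled call there. Differences between the digits were barely correlated between groups (r = 0.0573, 0.0221 and 0.0480 for pairs of groups). Each difference rests on few libraries, so this comparison cannot show whether the digit marks a shared factor. Over all genes, glmTreat gave 1130, 1696 and 2536 calls where 3742, 4263 and 4855 were reported for the P-DXd-titled, the T-DXd-titled and all treated libraries, the last rose to 8398 with no fold minimum, and DESeq2 gave 24 calls between conjugate groups where edgeR gave 4. Without P-DXd-titled replicate 3 the first was 1857, and without T-DXd-titled replicate 3 the second was 2820. The cause of these changes was not tested. ULBP1 and ULBP3, with 190 to 774 counts per library, were the genes measured at the lowest depth.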
